A study of Mus musculus with 14 samples.

Results

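The 51 genes described here make, break down or sense the cyclic nucleotides cAMP and cGMP. They were chosen by symbol from the 49315 genes of the count tables. The choice took adenylyl and guanylyl cyclases, phosphodiesterases, regulatory and catalytic subunits of protein kinase A, cGMP-dependent protein kinases and the Epac exchange factors Rapgef3 and Rapgef4. The study set hearts of 68-week-old mice against hearts of 12-week-old mice, all of them wild-type C57BL/6 males fed standard chow. RNA-seq was made from pulverised heart tissue, with 4 libraries at 68 weeks and 4 at 12 weeks. CUT&RUN of H3K27me3, the trimethyl-lysine mark that Polycomb proteins write on histone H3 at silenced genes, was made from hearts of the same ages and deposited as lists of regions. Which part of the heart was taken, and whether each library came from a mouse of its own, are not stated in the labels, so the p-values below measure the spread between libraries.

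Adenylyl cyclases make cAMP after beta-adrenergic and other G protein-coupled signals, and in the heart cAMP raises the rate and force of contraction through protein kinase A. Nitric oxide acts on soluble guanylyl cyclase and natriuretic peptides on membrane receptors to make cGMP, which relaxes vessels and acts against hypertrophy. Phosphodiesterases hydrolyse cAMP, cGMP or both, and their location in the cell keeps each signal local. In fat, cAMP and protein kinase A drive lipolysis and heat production, and insulin restrains them through the phosphodiesterase PDE3B.

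Total counts per library were 28842059 to 34599121 at 68 weeks and 23599296 to 31662601 at 12 weeks, and the 51 genes took 0.249% to 0.277% of them. All 10 cardiomyocyte markers were above 0 in every library and together held 6.01% to 7.36% of the counts. Markers of 2 other tissues differed widely between libraries. White adipocyte markers summed to 637 to 924 CPM at 68 weeks and 1058 to 1578 CPM at 12 weeks, and all 10 were above 0 in every library. Brown adipocyte markers summed to 990.1 to 1098 CPM at 68 weeks and 1259 to 1599 CPM at 12 weeks, and of these 8 only Elovl3 was at 0 in a library. Fabp4, Lipe and Pnpla2 on these lists are also made outside fat, and Cox7a1 and Cox8b on the brown list are also made in heart muscle. Airway epithelium markers summed to 2.89 to 1249 CPM at 68 weeks and 31.0 to 1945 CPM at 12 weeks, with 13 of 20, the club cell marker Scgb1a1 among them, at 0 in at least 1 library. These sums are CPM of each library's total counts, and all single-gene CPM below are scaled to the TMM-adjusted library size. In tissue RNA, fewer cells of a type and less RNA per cell cannot be told apart.

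Of the 51 genes, 42 had enough counts to be tested. At 68 weeks 1 was higher, the dual-specificity phosphodiesterase gene Pde11a, against 1.61% of all 15947 genes tested. In the other direction 1 was lower, Prkar2b, which encodes the RII-beta regulatory subunit of protein kinase A, against 1.22% of all genes. These calls used an adjusted p of 0.05 from edgeR's quasi-likelihood test with Benjamini-Hochberg adjustment over all genes tested. At this threshold the shares of the 42 are near those of all genes, but each rests on 1 gene. The median log2 fold change of the 42 was 0.03, with 23 positive and 19 negative values. Of the 42, 32 lay within 0.3 of zero on the log2 scale, as did 12759 of all 15947 genes tested. At an unadjusted p under 0.05 (edgeR), 5 of the 42 were higher and 8 lower, against 9.26% and 9.77% of all genes. The lower count is a larger share of the 42 than of all genes. The 9 genes not tested were the soluble adenylyl cyclase gene Adcy10, Gucy1b2, the 5 membrane guanylyl cyclase genes matched by symbol, and the photoreceptor phosphodiesterase genes Pde6a and Pde6c, each with at most 12 counts in any library.

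**Figure D1:**
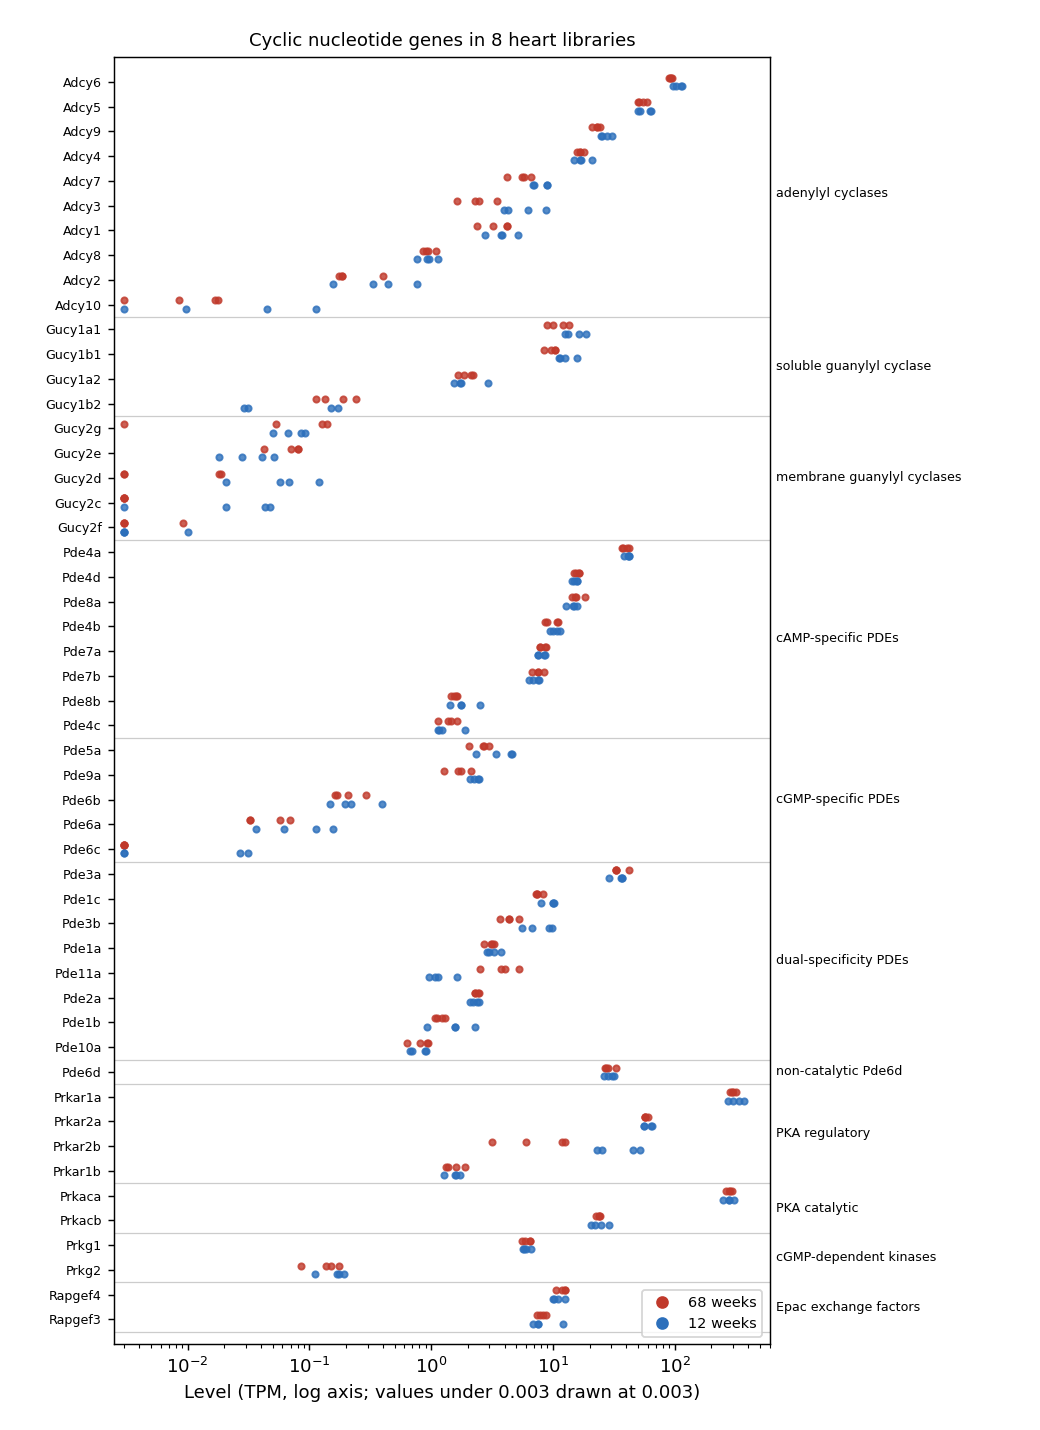
Level of each of the 51 genes in each of 8 heart libraries, in TPM on a log axis, grouped by role, with 68-week libraries in red above 12-week libraries in blue. The PKA subunit genes Prkar1a and Prkaca lie farthest right, at a mean of 298 and 280 TPM in 68-week libraries, and the membrane guanylyl cyclases lie at the left edge.

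The promoter windows of Pde11a, Prkar2b and Adcy3 are shown because these 3 genes had the largest fold changes among the 42 and Pde11a was linked to more H3K27me3 regions than any other of the 51. Polycomb complexes in mammals are known to gather at CpG-rich DNA, so capitals mark each CpG. Each window is from RefSeq on GRCm38.p6, runs 5′ to 3′ on the gene's strand and covers 250 bases before to 50 bases after an annotated start. Prkar2b and Adcy3 have 2 windows each in that table, of which the upstream one is shown.
Pde11a, minus strand, chr2:76338889-76339188: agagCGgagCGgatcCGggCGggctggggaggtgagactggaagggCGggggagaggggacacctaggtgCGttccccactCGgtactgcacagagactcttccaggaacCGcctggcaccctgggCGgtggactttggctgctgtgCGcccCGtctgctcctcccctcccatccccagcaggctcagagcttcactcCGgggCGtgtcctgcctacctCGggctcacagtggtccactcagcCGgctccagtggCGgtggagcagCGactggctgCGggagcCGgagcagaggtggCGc
Prkar2b, minus strand, chr12:32061228-32061527: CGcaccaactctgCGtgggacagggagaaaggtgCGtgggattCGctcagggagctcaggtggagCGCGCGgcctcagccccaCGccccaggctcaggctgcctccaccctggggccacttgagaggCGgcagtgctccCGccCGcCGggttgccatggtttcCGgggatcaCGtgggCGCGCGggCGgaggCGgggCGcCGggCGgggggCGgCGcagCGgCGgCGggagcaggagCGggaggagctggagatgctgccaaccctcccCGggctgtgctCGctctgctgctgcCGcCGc
Adcy3, plus strand, chr12:4133147-4133446: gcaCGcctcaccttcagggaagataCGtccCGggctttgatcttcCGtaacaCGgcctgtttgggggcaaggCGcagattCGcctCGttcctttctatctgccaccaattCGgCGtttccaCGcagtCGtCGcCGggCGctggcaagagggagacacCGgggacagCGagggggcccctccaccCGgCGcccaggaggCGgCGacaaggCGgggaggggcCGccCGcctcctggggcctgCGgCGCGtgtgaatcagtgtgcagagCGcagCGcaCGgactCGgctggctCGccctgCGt
The Pde11a window held 20 CpG in 300 bases, with a GC content of 69.3% and an observed over expected CpG ratio of 0.56. The Prkar2b window held 32 CpG at 75.0% GC with a ratio of 0.77, and that of Adcy3 held 33 CpG at 68.7% GC with a ratio of 0.93. All 3 exceed the median over 32851 RefSeq windows of mouse genes, which had 52.7% GC and a ratio of 0.38. The other Adcy3 window held 7 CpG at a ratio of 0.33, below that median, and the other Prkar2b window held 28 CpG at a ratio of 0.85.

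The cAMP response element, TGACGTCA, is the site that CREB family factors bind downstream of protein kinase A, and its half-site TGACG lies within it on either strand. RefSeq windows matched 41 of the 51 genes, 81 windows in all, and both strands were searched. The full element was in 2 windows, 2.47% of the 81, against 1.79% of all windows, and both belong to Prkar1a and overlap each other. The half-site was in 19 windows, or 23.5%, against 20.8% of all. The 3 sequences printed here hold neither.

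Adenylyl cyclase transcripts were dominated at both ages by the 2 forms known as cardiac. Adcy6 made up 46.5% ± 1.09 of adenylyl cyclase TPM at 68 weeks and 47.0% ± 1.74 at 12 weeks (SD, n = 4 each), and Adcy5 made up 27.1% ± 1.04 at 68 weeks and 25.1% ± 2.23 at 12 weeks. TPM, computed here from counts and exon lengths, is the only scale used to set one gene's level against another's. Summed over the 10 genes, adenylyl cyclase transcripts held 198 ± 8.95 TPM at 68 weeks and 227 ± 19.1 TPM at 12 weeks. Mitochondrial genes, which count in the TPM total, took 10.1% to 12.1% of counts at 68 weeks, and 7.41%, 8.07%, 11.5% and 11.4% in 12-week replicates 1 to 4. Adcy5 stood at 64.0 and 63.0 TPM in 12-week replicates 1 and 2 and at 50.3 and 51.5 TPM in replicates 3 and 4, and the part of the mitochondrial share in TPM sums was not tested.

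Adcy6, a calcium-inhibited cyclase, stood at 257, 253, 237 and 256 CPM at 68 weeks, against 259, 261, 268 and 297 CPM at 12 weeks. The ages did not overlap, but the gap was small, with a log2 fold change of -0.11 ± 0.06 (SE) that was not called (adjusted p = 0.319, edgeR). Adcy5, the other calcium-inhibited form, overlapped between ages at 0.02 ± 0.07. Adcy9, which is insensitive to forskolin, had 56.6, 54.9, 52.0 and 49.8 CPM at 68 weeks, against 59.0, 60.6, 60.7 and 56.6 CPM at 12 weeks. Its libraries just separated, and its log2 fold change was -0.15 ± 0.05 (adjusted p = 0.154, edgeR). Adcy7, a form known from blood cells, had 17.6, 13.0, 16.4 and 20.3 CPM at 68 weeks, against 22.3, 25.2, 21.2 and 20.6 CPM at 12 weeks. The log2 fold change of Adcy7 was -0.41 ± 0.12, also not called (adjusted p = 0.115, edgeR, and 0.0365 with DESeq2).

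Adcy3, a cyclase of olfactory cilia that is also made in fat, had the largest difference of the cyclases. It had 6.39, 7.21, 9.38 and 4.67 CPM at 68 weeks, against 14.6, 10.5, 12.4 and 23.8 CPM at 12 weeks. Every 68-week library was below every 12-week library, and 12-week replicate 4 stood highest. The log2 fold change was -1.15 ± 0.27, which missed the threshold with edgeR (adjusted p = 0.0596) and passed it with DESeq2 (adjusted p = 0.000521). Adcy3 (chr12:4133103-4213525, plus strand, mm10 by label) shares 22.1% of its exon bases with Cenpo on the other strand, so part of its count is uncertain. Of the remaining cyclases Adcy4, Adcy1, Adcy8 and Adcy2 overlapped between ages.

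Of the cGMP-forming enzymes, the soluble guanylyl cyclase subunits were measured at 22.9 ± 2.60 TPM in sum at 68 weeks and 30.0 ± 4.26 TPM at 12 weeks. Gucy1b1, the beta subunit that carries the haem to which nitric oxide binds, had 17.1, 18.7, 17.8 and 15.1 CPM at 68 weeks, against 23.2, 20.8, 20.1 and 19.6 CPM at 12 weeks. All 68-week libraries were lower, and the log2 fold change was -0.29 ± 0.08 (adjusted p = 0.0912, edgeR, and 0.0466 with DESeq2). Its partner Gucy1a1 overlapped between ages at -0.36 ± 0.14, and the alternative alpha subunit Gucy1a2 had 0.09 ± 0.16. The 5 membrane guanylyl cyclases matched by symbol, which serve retina, olfactory tissue and gut, together held 0.16 ± 0.06 TPM at 68 weeks and 0.205 ± 0.0227 TPM at 12 weeks. Gucy2e, a retinal form, had 10, 5, 10 and 10 counts at 68 weeks, against 6, 3, 4 and 2 at 12 weeks, too few to test. Gucy2d had at most 6 counts and Gucy2g at most 7 in any library. Gucy2c, the intestinal receptor for guanylin, had 0 counts in all 4 libraries at 68 weeks and at most 2 at 12 weeks.

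Of the catalytic phosphodiesterases, Pde4a and Pde3a took the most transcripts. Pde4a, a cAMP-specific enzyme, made up 24.2% ± 0.938 of catalytic phosphodiesterase TPM at 68 weeks and 24.6% ± 0.805 at 12 weeks. Pde3a, the cGMP-inhibited enzyme that acts on cAMP near the sarcoplasmic reticulum, made up 21.6% ± 1.79 at 68 weeks and 20.8% ± 1.31 at 12 weeks. The cAMP-specific enzymes as a group held 99.3 ± 4.78 TPM at 68 weeks and 99.3 ± 3.42 TPM at 12 weeks, and none of the 8 was called by edgeR or DESeq2, with 3 higher and 0 lower at an unadjusted p under 0.05 (edgeR). Log2 fold changes of these 8 ran from -0.15 to 0.22, with 0.03 ± 0.06 for Pde4a, 0.14 ± 0.06 for Pde4d, whose product binds the ryanodine receptor, and 0.22 ± 0.10 for Pde8a, a high-affinity cAMP enzyme.

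The cGMP-specific enzymes held 4.55 ± 0.461 TPM at 68 weeks and 6.34 ± 1.04 TPM at 12 weeks, and none of the 3 tested was called by edgeR or DESeq2 or had an unadjusted p under 0.05. Pde5a, the target of sildenafil, had 12.0, 13.6, 11.4 and 9.25 CPM at 68 weeks, against 16.5, 19.0, 15.5 and 10.0 CPM at 12 weeks. The ages overlapped through 12-week replicate 4, and its log2 fold change was -0.40 ± 0.18. Pde9a, a cGMP enzyme of high affinity that is known from heart muscle, had -0.35 ± 0.17, and Pde6b of photoreceptors had -0.10 ± 0.31. Pde6d, named with this family but a carrier of prenylated proteins and no catalyst, had 28.7 ± 2.83 TPM at 68 weeks and 29.3 ± 2.44 TPM at 12 weeks.

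Pde11a encodes an enzyme that hydrolyses both cAMP and cGMP. It had 12.4, 9.70, 8.51 and 5.98 CPM at 68 weeks, against 2.21, 2.33, 2.32 and 3.68 CPM at 12 weeks. The lowest 68-week library stood above the highest 12-week library. The SD was larger at 68 weeks, as was the mean, at 9.14 ± 2.66 CPM against 2.64 ± 0.699 CPM at 12 weeks. The log2 fold change was 1.79 ± 0.24 (adjusted p = 0.00738, edgeR). Pde11a was called without each library in turn, with log2 fold changes from 1.61 to 2.00. It lies at chr2:75989141-76338774 on the minus strand, mm10 by label, and shares no exon base with another gene of the count tables. In TPM it had 3.89 ± 1.14 at 68 weeks and 1.19 ± 0.288 at 12 weeks, and it made up 6.59% of dual-specificity phosphodiesterase TPM at 68 weeks and 1.94% at 12 weeks. Pde3a made up 59.9% of that group at 68 weeks and 56.8% at 12 weeks.

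Pde3b, which encodes the insulin-activated cAMP enzyme of fat and liver, stood lower at 68 weeks, just outside the threshold. It had 17.8, 18.5, 20.8 and 15.3 CPM at 68 weeks, against 31.6, 21.3, 28.4 and 39.4 CPM at 12 weeks. No 68-week library reached the lowest 12-week library. The log2 fold change was -0.74 ± 0.17 (adjusted p = 0.0509, edgeR), and DESeq2 called it (adjusted p = 0.000663). Pde1c, a calcium and calmodulin-activated enzyme of heart muscle, had 66.7, 77.1, 63.0 and 67.7 CPM at 68 weeks, against 74.7, 84.9, 74.1 and 89.2 CPM at 12 weeks. Its ages overlapped, and its log2 fold change was -0.23 ± 0.08 (adjusted p = 0.157, edgeR). Pde3a, Pde1a, Pde2a, Pde1b and Pde10a also overlapped, and 64.3% of the exon bases of Pde2a are shared with Gm45837, which leaves its count uncertain.

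Among the effectors, the protein kinase A subunit genes Prkar1a and Prkaca had the most abundant of all 51 transcripts. Prkar1a, the RI-alpha regulatory subunit, had 298 ± 14.5 TPM at 68 weeks and 320.2 ± 40.7 TPM at 12 weeks. Prkaca, the main catalytic subunit, had 279.9 ± 13.7 TPM at 68 weeks and 278 ± 24.0 TPM at 12 weeks, and it made up 92.2% of catalytic subunit TPM at 68 weeks and 92.1% at 12 weeks. Prkar2a, the RII-alpha subunit, had 57.9 ± 1.61 TPM at 68 weeks and 60.4 ± 4.89 TPM at 12 weeks. The log2 fold changes of Prkar1a, Prkaca, Prkacb and Prkar2a lay between -0.0005 and 0.11, and none was called.

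Prkar2b encodes the RII-beta regulatory subunit, which is known chiefly from fat and brain. It had 9.87, 20.0, 20.0 and 5.30 CPM at 68 weeks, against 62.0, 35.1, 42.6 and 83.2 CPM at 12 weeks. Every 68-week library was lower, and within each age the libraries spread widely, with replicate 4 lowest at 68 weeks and replicate 4 highest at 12 weeks. The log2 fold change was -2.02 ± 0.41 (adjusted p = 0.0366, edgeR). As a share of PKA regulatory subunit TPM, Prkar2b stood at 2.31% ± 1.27 at 68 weeks and 8.74% ± 3.67 at 12 weeks, and Prkar1a at 81.4% ± 1.34 at 68 weeks and 76.4% ± 3.53 at 12 weeks. The call for Prkar2b held without 68-week replicate 3 and was lost without each of the other 7 libraries, with log2 fold changes from -2.26 to -1.74. Prkar2b lies at chr12:31958476-32061296 on the minus strand, mm10 by label.

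The other effectors differed little. Rapgef4, which encodes the cAMP-activated exchange factor Epac2, had 31.5, 38.9, 36.9 and 35.9 CPM at 68 weeks, against 31.5, 30.7, 31.1 and 29.9 CPM at 12 weeks. The ages overlapped only through 68-week replicate 1, and the log2 fold change was 0.22 ± 0.06 (adjusted p = 0.106, edgeR). Without that library it was 0.27 and was called (adjusted p = 0.0333, edgeR). Rapgef3, which encodes Epac1, had 0.04 ± 0.12, Prkg1, the cGMP-dependent kinase of smooth muscle and heart, had 0.11 ± 0.07, and the low Prkg2 had -0.15 ± 0.31.

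**Figure D2:**
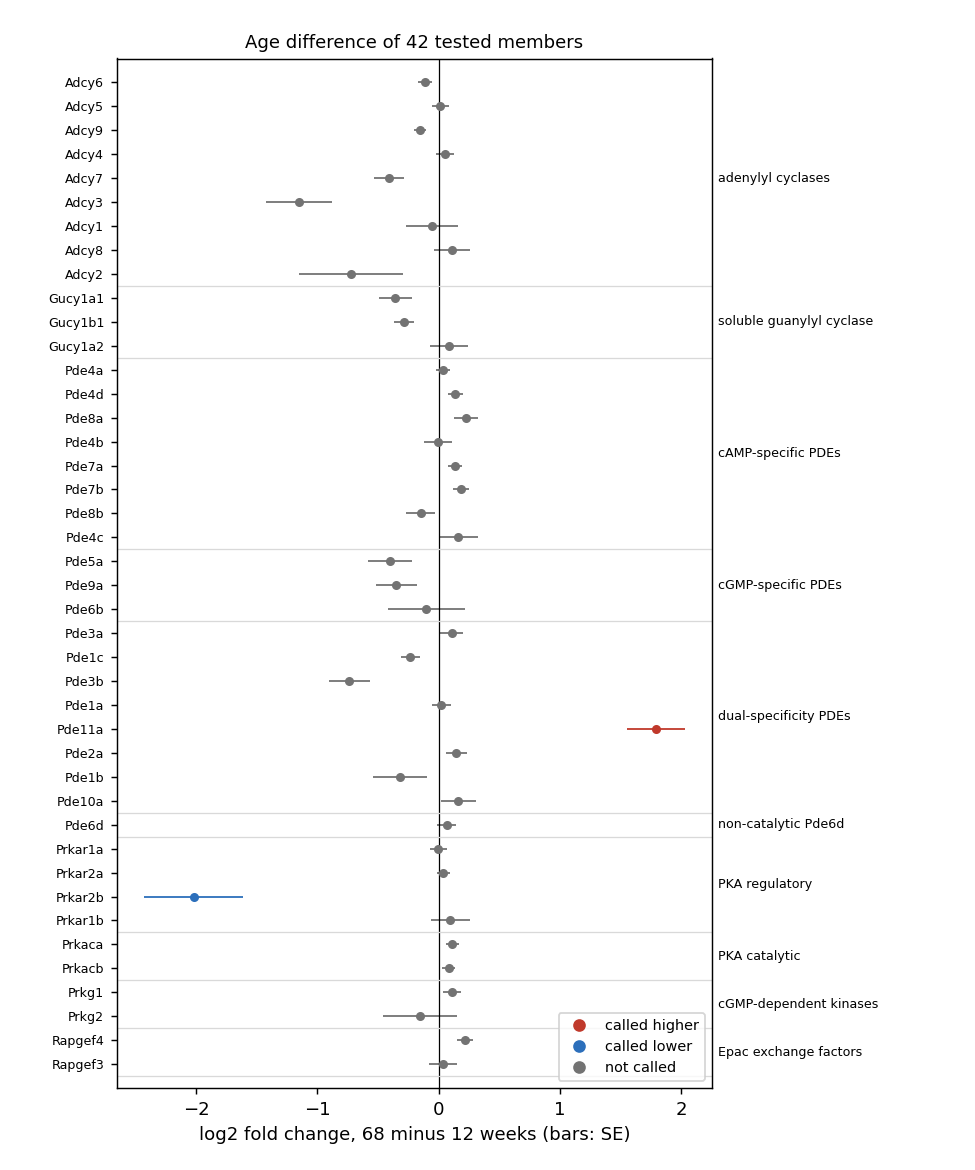
Log2 fold change, 68 minus 12 weeks, of the 42 tested genes by role, with bars for the SE and colour for the call at an adjusted p of 0.05. Pde11a at 1.79 and Prkar2b at -2.02 are the called genes, and Adcy3 and Pde3b at -1.15 and -0.74 lie left of the other genes called neither way.

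The libraries of the 2 ages did not overlap in CPM for 1 tested gene that was higher, Pde11a, where 6.26% of all genes tested were apart in that direction. For 7 tested genes they were apart and lower, namely Adcy6, Adcy9, Adcy7, Adcy3, Pde3b, Prkar2b and Gucy1b1, where 5.86% of all genes tested were. Within each age the order of libraries was read as well, a comparison chosen after the values were seen.

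**Figure D3:**
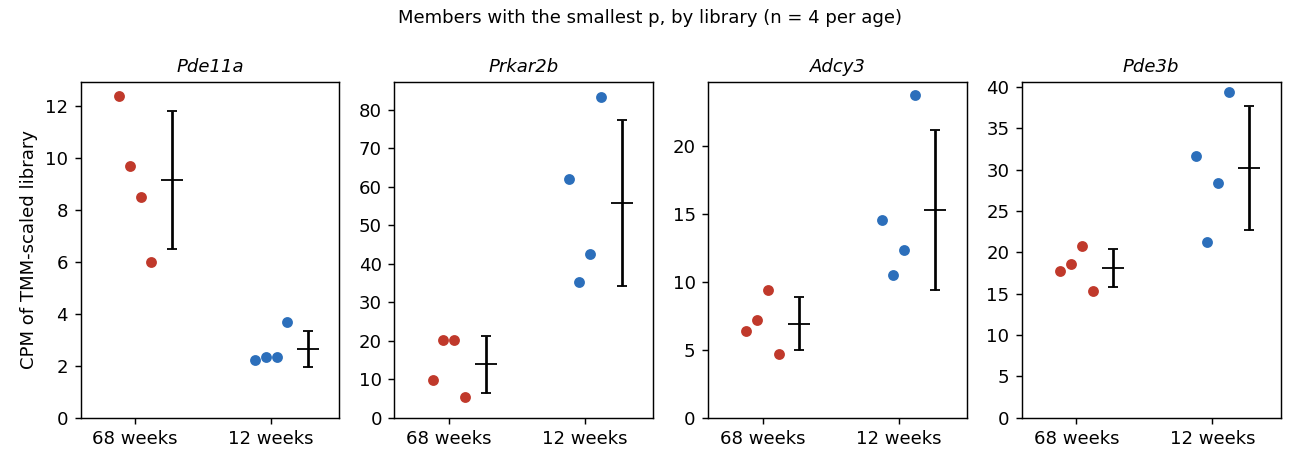
CPM of the TMM-scaled library for Pde11a, Prkar2b, Adcy3 and Pde3b in each library, with 68 weeks left of 12 weeks and with mean and SD over 4 libraries beside the points. The ages are apart in all 4 panels, and the 68-week Prkar2b values of 5.30 to 20.0 CPM lie below 12-week values of 35.1 to 83.2 CPM.

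Prkar2b, Adcy3 and Pde3b ran in the same order as adipocyte markers within each age. The mean log2 CPM of the white and brown adipocyte markers was 4.45, 4.82, 4.83 and 3.82 at 68 weeks and 5.62, 5.16, 5.45 and 5.81 at 12 weeks, in replicate order. Prkar2b, Adcy3 and Pde3b were each lowest in 68-week replicate 4, highest in 12-week replicate 4, and in the marker order in between at both ages, although 68-week replicates 2 and 3 were nearly level in the markers and in Prkar2b. These 3 of the 42 genes had the marker order in both ages, as did 0.351% of all genes tested, and none of the 68 tested genes of the wider pathway did. Adipoq, the adipocyte hormone gene, had 6.29, 10.4, 8.80 and 2.47 CPM at 68 weeks, against 28.2, 18.2, 23.4 and 31.4 CPM at 12 weeks. Adipoq and the pathway gene Adrb3 also had the marker order, except that 68-week replicate 2 stood above replicate 3. Pde11a did not have this order at either age.

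**Figure D4:**
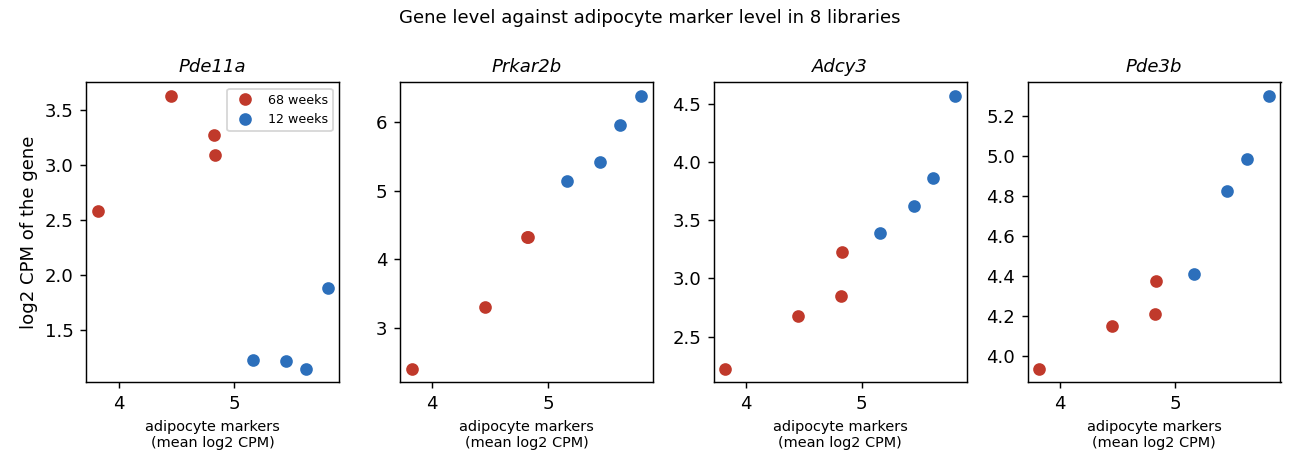
Log2 CPM of Pde11a, Prkar2b, Adcy3 and Pde3b against the mean log2 CPM of 18 adipocyte markers in 8 libraries, with 68 weeks in red and 12 weeks in blue. Prkar2b, Adcy3 and Pde3b climb with the markers within both ages, while Pde11a is split by age and does not.

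With the adipocyte marker mean beside age in the model, the log2 fold change of Prkar2b was -0.12 ± 0.16, that of Adcy3 was -0.01 ± 0.29, and that of Pde3b was -0.09 ± 0.21. Pde11a then had 2.44 ± 0.38 (adjusted p = 0.184, edgeR), larger than with age alone but no longer called. The marker mean lies lower in every 68-week library than in any 12-week library, so in this model the 2 cannot be told apart, and only 2 of all genes tested were called. Whether fat cells carried the Prkar2b, Adcy3 and Pde3b transcripts was not tested. With airway markers in the model instead, Pde11a had 1.61 ± 0.26 and stayed called (adjusted p = 0.0346, edgeR), and Prkar2b had -1.99 ± 0.45 and was not (adjusted p = 0.107, edgeR).

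**Figure D5:**
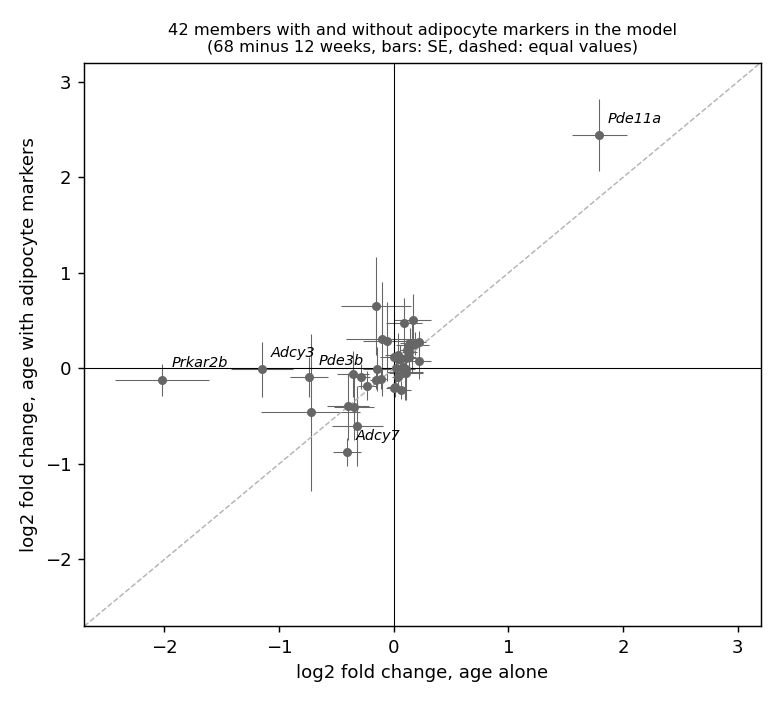
Log2 fold change, 68 minus 12 weeks, of the 42 tested genes with age alone (horizontal) and with the adipocyte marker mean added (vertical), with bars for the SE and a dashed line for equal values. Prkar2b, Adcy3 and Pde3b move to -0.12, -0.01 and -0.09 on the vertical axis, while Pde11a lies at 2.44.

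The wider pathway was read from 69 genes in 5 lists, of which 68 were tested and 2 were higher and 4 lower at 68 weeks (1.61% and 1.22% of all genes). All 4 that fell belong to the 25 receptors and G proteins upstream of the cyclases. Adrb1, the main beta-adrenergic receptor of heart muscle, had 30.0, 34.6, 31.6 and 30.2 CPM at 68 weeks, against 40.0, 47.0, 40.1 and 44.1 CPM at 12 weeks. The ages were apart, the log2 fold change being -0.44 ± 0.07 (adjusted p = 0.0129, edgeR), and Adrb1 was called without each library in turn. Beside the airway marker mean Adrb1 had -0.46 (adjusted p = 0.0611, edgeR), and beside the adipocyte marker mean -0.38 (adjusted p = 0.587, edgeR), neither of which passed.

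Adrb3, the beta-adrenergic receptor of fat, had 1.19, 2.31, 1.74 and 0.684 CPM at 68 weeks, against 5.71, 4.17, 4.48 and 11.4 CPM at 12 weeks. The ages were apart, and the log2 fold change of -2.14 ± 0.41 (adjusted p = 0.0316, edgeR) became -0.32 ± 0.38 with adipocyte markers in the model. Npr1, a natriuretic peptide receptor that is itself a guanylyl cyclase, had 29.8, 25.7, 27.4 and 25.9 CPM at 68 weeks, against 36.1, 34.5, 34.1 and 31.1 CPM at 12 weeks. All 68-week libraries were lower, and the log2 fold change was -0.32 ± 0.06 (adjusted p = 0.0351, edgeR). Npr2, also such a receptor, had a mean of 33.3 TPM over all libraries, against 14.8 TPM for Npr1. Its log2 fold change was 0.09 ± 0.05 and not called, with every 68-week library higher. Gnai1, a G protein alpha subunit that inhibits adenylyl cyclase, had 7.88, 5.84, 6.93 and 5.71 CPM at 68 weeks, against 11.7, 10.7, 8.82 and 9.82 CPM at 12 weeks. Its ages were apart as well, at -0.64 ± 0.12 (adjusted p = 0.0320, edgeR). The other inhibitory subunit genes were more abundant and not called. Gnai2, at a mean of 128 TPM over all libraries, had 0.11 ± 0.05 and was higher in every 68-week library. Gnai3, at 21.4 TPM, had 0.03 ± 0.06, where Gnai1 had a mean of 6.25 TPM. Gnas, the stimulatory alpha subunit, had -0.03 ± 0.05 and was not called. Leaving out 1 library in turn, Adrb3 stayed called in 4 of 8 fits, and Npr1 and Gnai1 in 2 of 8 each.

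Akap6, the anchor that holds protein kinase A at the nuclear envelope of cardiomyocytes, was the 1 of 14 anchoring and inhibitor genes that edgeR called higher, and DESeq2 called Pkig as well. It had 436, 407, 414 and 415 CPM at 68 weeks, against 366, 349, 364 and 356 CPM at 12 weeks. The ages were apart, and the log2 fold change was 0.22 ± 0.04 (adjusted p = 0.0364, edgeR). Popdc2, a membrane protein that binds cAMP in heart muscle, was the 1 of 10 other cyclic nucleotide binding and export genes that edgeR called higher, and DESeq2 called Cnga3 as well. It had 649, 675, 616 and 760.5 CPM at 68 weeks, against 474, 571, 486 and 507 CPM at 12 weeks, again with no overlap. Its log2 fold change was 0.41 ± 0.08 (adjusted p = 0.0341, edgeR). Akap6 missed the threshold when any 1 of the 8 libraries was left out (adjusted p from 0.0599 to 0.0868, edgeR), and Popdc2 when any of 6 was. None of the 10 cAMP-responsive transcription factors and coactivators was called (2 higher at an unadjusted p under 0.05, edgeR, and 0 called by DESeq2), with 0.19 ± 0.07 for Atf1 and 0.39 ± 0.15 for the CREB target Sik1. Of the 10 kinase substrates edgeR called none (3 higher and 1 lower at an unadjusted p under 0.05), and DESeq2 called Cacna1c, Hspb6 and Mybpc3 higher, with edgeR values of 0.38 ± 0.10 for Hspb6, a small heat shock protein, and -0.68 ± 0.18 for the phosphatase inhibitor gene Ppp1r1a. Of genes named for the smallest p in their list, Pkig, a protein kinase A inhibitor, had 0.23 ± 0.06 and the channel gene Cnga3 had 0.51 ± 0.15.

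Regions of H3K27me3 were linked by the authors to 10 of the 51 genes in the 68-week list and to 4 in the 12-week list. Of all genes counted, 2.4% were linked at 68 weeks and 1.06% at 12 weeks. Of the 42 tested genes 7 were linked at 68 weeks, where 3.46% of all tested genes were, and 3 at 12 weeks, where 1.44% were. The deposited lists hold 3433 regions at 68 weeks and 1164 at 12 weeks, each called unique to its age by its name, and a score per region but none per library, which leaves them without an error. If the names hold, a region marked at both ages is in neither list. A gene missing from a list may therefore still carry the mark at that age. The median gene span was 67.0 kb for tested genes linked at 68 weeks and 20.0 kb for those not linked. Among the 42 it was 276 kb for the 7 linked and 91.1 kb for the 35 not linked. Whether length accounts for the number of links was not tested.

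Pde11a had 10 regions in the 68-week list and none in the 12-week list. Of the 1274 genes linked at 68 weeks, 4 had at least 10 regions, 2 had more than 10, and the median was 1. Its regions spread over 98.1 kb, from position 75830015 to 75928122 of chromosome 2 as deposited. Their authors' scores, whose scale is not stated, ran from 3.74 to 7.53 with a median of 4.94, against a median of 4.77 over the list. They form 2 stretches, with 7 regions between 75830015 and 75865900 and 3 between 75926476 and 75928122, and the shorter stretch holds the highest score. As deposited none of the 10 lies on the Pde11a span of the count tables. Only 20.6% of 2479 links placed the region on its gene. With the best shift of up to 300 kb taken for each chromosome 53.7% did, although on chromosome 4 no shift raised the share. The region coordinates as a whole thus appear not to be on the assembly of those tables, though their build is not stated. Where in the gene or its promoter the regions fall is therefore not given. With edgeR, Pde11a was the 1 gene of the 51 with regions in the 68-week list and a called RNA difference, an increase, and with DESeq2 Adcy7 was called as well, a decrease. The link of Adcy7 is 1 region with a score of 3.39, at percentile 1.3 of the 68-week list.

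Rapgef4 and Pde6a had 3 regions each in the 68-week list, Adcy5 and Pde1c had 2 each, and Adcy7, Gucy2c, Gucy2e, Pde3a and Prkg1 had 1 each. Gucy2c, with at most 2 counts in any library, had the highest score among these 51 genes, 8.90. In the 12-week list Gucy2e, Pde10a, Pde4c and Pde9a had 1 region each, with scores from 4.05 to 5.44. Gucy2e was the only one of the 51 in both lists. Apart from Pde11a, no linked gene was called in RNA by edgeR, while DESeq2 also called Adcy7 lower, with edgeR log2 fold changes from -0.41 for Adcy7 to 0.22 for Rapgef4 among those tested. Pde10a, a dual-specificity enzyme known from striatal neurons, had 0.16 ± 0.15, and Pde4c, a cAMP-specific enzyme, had 0.16 ± 0.16.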

How the data were processed

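Whole-number counts per gene, not normalized, were deposited for 8 RNA libraries, 4 per age, and the per-library tables were identical to the series table. STAR 2.5.2b, Subread 1.5.2 and featureCounts and the build mm10 are named in the submitters' processing notes. The notes do not say whether counting used strand. The authors' region lists carry a score, called enrichment by the authors, and links to genes. How the CUT&RUN replicates were combined and what genome build the region positions are on are not given.

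The 51 genes, the pathway and marker lists and the tests were chosen with earlier results of these data known. All 49315 genes entered 1 edgeR 4.0.16 fit in R 4.3.3 (TMM, filterByExpr, quasi-likelihood test, age alone, Benjamini-Hochberg over 15947 genes, adjusted p of 0.05). DESeq2 1.42.0 was an alternative. Log2 fold changes are 68 minus 12 weeks, and the SE, the size of the log2 fold change over the square root of F, is approximate. CPM of a gene are counts scaled to the TMM-adjusted library size, and summed marker CPM use total counts. TPM used exon lengths of the count tables and all genes. The common biological coefficient of variation was 0.139. Within an age, each pair of libraries differed beyond sampling noise (chi-square over its degrees of freedom 17.3 or more). Alternatives were other normalizations, no filter, each library left out, the replicate number as a block, and airway or adipocyte markers as a covariate. Genes named were those called, the 3 of each role with the highest TPM, those linked to a region, and of the pathway lists those called and the 2 of smallest p. Other members, Adcy3 among them, were named after their values were seen.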

Additional observations from a re-analysis of the deposited data

Results flagged for a closer look

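In 4 of 82 groups of 4 libraries, 1 library stood apart from the other 3 by Dixon's test at the 95% level. Chance flags about 1 in 20 such groups. Pde11a had 3.68 CPM in 12-week replicate 4, against 2.21 to 2.33 CPM in the other 12-week libraries. Prkar1a had 627.9 CPM in 68-week replicate 4, against 562 to 570.4 CPM in the others of that age. Gucy1a2, an alpha subunit of soluble guanylyl cyclase, had 7.31 CPM in 12-week replicate 1, against 4.74 to 5.05 CPM. Pde4c had 3.92 CPM in the same library, against 2.82 to 2.88 CPM.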

How the results depend on the processing

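Pde11a was called higher in every setting but the one with adipocyte markers, where 0 of the 51 genes were higher, and the 4-library fits. Those set 1 library against 3, namely 68-week replicate 3 against 12-week replicates 1 to 3 (most airway markers, Pde11a 1.90) and 68-week replicates 1, 2 and 4 against 12-week replicate 4 (fewest, Pde11a 1.34), so each rests on 1 library of an age, and the fit with fewest called Pde3b lower. Of the 51 genes, 42 of them tested in the main fit, 5 were lower with DESeq2 (Adcy3, Adcy7, Gucy1b1, Pde3b and Prkar2b). With no filter 3 were lower, with library size only 2, and with airway or adipocyte markers 0. Over all genes, 557 were higher and 455 lower with DESeq2, of 15325 genes to which it gave an adjusted p. Of 15947 genes tested, 68 were higher and 19 lower with airway markers, and 2 and 0 with adipocyte markers. Of the pathway genes, 68 of them tested in the main fit, 7 were higher with DESeq2 and 1 with library size only. With either marker covariate 0 were higher and 0 lower. Leaving out 1 library at a time gave 117 to 209 genes higher and 52 to 154 lower, 1 to 2 and 0 to 1 of the 51 genes, and 0 to 1 and 1 to 3 of the pathway genes. The cause of these changes was not tested. With library size only, log2 fold changes shifted by -0.06 at the median. Called named genes never changed sign, and 13 of 33 others did in 44 of 561 values, between -0.23 and 0.65. The linked genes numbered 5 at 68 weeks and 1 at 12 weeks with a score at or above the list's median, and 3 and 1 with a region on the gene as deposited, where builds appear to differ.

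With the replicate block, 112 genes were higher and 48 lower, 1 and 0 of the 51, and 0 and 1 of the pathway genes. Same-numbered libraries correlated at -0.20, 0.04, -0.05 and 0.24, so the numbers do not pair the libraries.

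Depth limits the 9 untested genes, and 4 libraries per age and adipocyte and airway transcripts that differ between libraries limit the rest.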

Other observations

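Markers of other cell types that carry cyclic nucleotide genes were read in the same fit, with genes named after their values were seen. None of 10 vascular smooth muscle and pericyte markers was called by edgeR (0 higher and 1 lower at an unadjusted p under 0.05), and their sum was 3120.3 to 3209 CPM at 68 weeks and 2971 to 3770.1 CPM at 12 weeks. The same held for 10 endothelial markers (0 higher and 2 lower at an unadjusted p under 0.05), with 897 to 1089 CPM at 68 weeks and 971 to 1242 CPM at 12 weeks. Fibroblast markers summed to 1966 to 2452 CPM at 68 weeks and 2679 to 3174 CPM at 12 weeks. Col1a1, a fibrillar collagen gene, was the 1 of 10 called lower by edgeR, at -0.73 ± 0.16. At an unadjusted p under 0.05 (edgeR), 1 fibroblast marker was higher and 5 were lower. Cx3cr1, the fractalkine receptor gene, was the 1 of 10 macrophage markers that fell, with 2.81, 1.55, 1.55 and 1.37 CPM at 68 weeks, against 5.30, 5.10, 6.59 and 5.49 CPM at 12 weeks. Its log2 fold change was -1.62 ± 0.22 (adjusted p = 0.00738, edgeR). Of 8 tested B and T cell markers 3 fell, the B cell receptor genes Cd79a and Cd79b and the T cell receptor gene Trac, at -2.17 ± 0.41, -1.96 ± 0.41 and -1.04 ± 0.22. Of white adipocyte markers 4 of 10 were called lower (Adipoq, Cfd, Cidec and Car3), and of brown adipocyte markers 2 of 8 (Elovl3 and Dio2). At an unadjusted p under 0.05 (edgeR), 8 white and 5 brown adipocyte markers, 2 macrophage markers and 5 B and T cell markers were lower. None on those lists was higher at that threshold. None of the cardiomyocyte, atrial, airway or nerve markers was called by edgeR. At an unadjusted p under 0.05, 3 of 10 cardiomyocyte markers were higher, 2 of 18 tested airway markers were lower, 0 of 8 atrial markers were in either direction, and of 8 tested nerve markers 1 was higher and 3 were lower.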
